A study of Homo sapiens with 12 samples.

Results

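The hypoxia response and glycolysis genes described here are 34 named human genes: the oxygen-regulated transcription factor subunits HIF1A and EPAS1, the hydroxylases that control them, glucose transporters, glycolytic enzymes, and other genes that hypoxia-inducible factor (HIF) is known to activate. They were listed by name, by a rule that uses no measured value, although earlier results of these data were known when the list was drawn up. Each was read from the probe set with the highest mean over all arrays. Probe sets were listed for 33 of the 34, of 11963 genes tested; CA9 was not analysed here. Of the 33, 17 are glycolytic enzymes and 16 are regulators, transporters, PDK1 and other HIF targets.

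RNA came from MDA-MB-231, a long-established human breast cancer line that lacks hormone receptors and HER2 amplification, and was hybridised to 12 Affymetrix expression arrays. All groups were cultured under normal conditions and treated for 24 h. The groups were DMSO vehicle, 5 µM SAHA (vorinostat, a histone deacetylase inhibitor), 2.5 mM pargyline (which blocks monoamine oxidase and, at such millimolar doses, is used against the related demethylase LSD1), and 5 µM SAHA together with 2.5 mM pargyline, called the combination below. Each of the 4 groups held 3 arrays, labelled as biological replicates. The labels give no oxygen level and name no hypoxic culture, and this is 1 cell line, so the comparisons are between drugs in ordinary culture.

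HIF is a pair of an oxygen-regulated alpha subunit (from HIF1A or EPAS1) and a stable partner, ARNT. In oxygen, the prolyl hydroxylases encoded by EGLN1 and EGLN3 mark the alpha subunit for degradation through VHL. When oxygen is short, the pair binds a short element with the core ACGTG or GCGTG in target genes, and raises glucose uptake, glycolysis, vessel growth signals, collagen hydroxylation and mitophagy. Much of this control acts on the alpha protein, which these arrays do not measure.

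Values are the deposited log2 intensities. A difference is a log2 difference between group means with its standard error (SE) from limma, over 3 arrays a group. A gene is said to have risen or fallen where limma's moderated test gave an adjusted p under 0.05, with the Benjamini-Hochberg adjustment taken across the 11963 genes tested.

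The median gene was at 6.98 ± 0.01 (SD, n = 3) on the DMSO arrays, 7.057 ± 0.015 with SAHA, 7.093 ± 0.015 with pargyline and 7.09 ± 0.03 with the combination (each exact permutation p = 0.1 against DMSO, two-sided, the smallest that 3 against 3 allows), and replicate arrays correlated with r from 0.9975 to 0.9992 across genes. The vimentin gene VIM (14.90 ± 0.008 with DMSO) was at the 99.6th percentile of genes by its mean over all arrays. The other mesenchymal markers lay between the 64.8th (SPARC) and the 98th (CAV1). Among the luminal markers, PGR (2.17 ± 0.016) and CDH1 (2.11 ± 0.016) lay at the 18.3rd and 15.7th percentiles. ESR1 (3.11 ± 0.06) lay at the 36.6th and FOXA1 (2.92 ± 0.017) at the 35.4th, while KRT18 (13.35 ± 0.116) lay at the 95.3rd. ERBB2 and GATA3 were measured at 8.28 ± 0.111 and 9.23 ± 0.099 with DMSO and fell with SAHA, to 5.19 and 6.27. Of 6 mesenchymal markers 0 passed with pargyline in limma (unadjusted, 1 upward and 2 downward); 5 fell with SAHA, CD44 the most (-2.11 ± 0.14), and 4 fell with the combination. Of 7 luminal markers 0 passed with pargyline (unadjusted, 1 downward), and 3 fell with SAHA and 3 with the combination. Over all genes 15.9% passed with pargyline, 23.1% fell with SAHA and 24.0% fell with the combination. The part of these marker changes in the results with SAHA was not tested. Group means of the 16 fibroblast, leukocyte and endothelial marker genes measured lay between 1.68 and 6.31, with COL1A1 the highest, and 0 passed with pargyline in limma, where 1 had an unadjusted p under 0.05. With SAHA, PDGFRB (0.10 ± 0.03) and KDR (0.48 ± 0.12) rose among them, and with the combination KDR (0.74 ± 0.12). The 3' minus 5' difference of the GAPDH control probe sets averaged 0.019 ± 0.006 in the DMSO group, 0.019 ± 0.012 in the SAHA group, -0.003 ± 0.052 in the pargyline group and 0 ± 0.037 in the combination. That of ACTB averaged 0.79 ± 0.036, 0.843 ± 0.067, 0.807 ± 0.172 and 0.893 ± 0.05 in the same order; all combination arrays lay above all DMSO arrays (exact permutation p = 0.1, two-sided).

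DMSO replicate 3 stood apart from the other DMSO arrays in these genes. It gave the highest of the 3 DMSO values for 19 of the 33 members (57.6%), against 29.2% of all genes. It gave the lowest for 12 of the 33, against 5440 of the 11963 genes tested. STC1 was 1.66 above the mean of the other DMSO arrays there, NDRG1 0.73, ALDOC 0.72, BNIP3L 0.71 and EGLN1 0.59. These 5 members (15.2%) exceeded 0.5, against 2.11% of all genes. ADM went the other way, at -0.86. Of the 5 members over 0.5, NDRG1 and BNIP3L read highest on replicate 3 in every treated group too, and STC1, ALDOC and EGLN1 did not. On replicate 3 NDRG1 read 11.81 with SAHA, 11.51 with pargyline and 12.57 with the combination. What set DMSO replicate 3 apart was not tested. Values without it are given where it changes a call or moves a described difference from DMSO by more than 0.15.

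Pargyline alone raised 19 of the 33 members and lowered none. Over all genes 8.48% rose and 7.45% fell in that comparison (15.9% either way), and without adjustment 22 members had p under 0.05 in limma upward and 0 downward. Of the 17 glycolytic enzymes 7 rose, and of the other 16 members 12 rose. The members' median difference was 0.42, 0.20 for the glycolytic enzymes and 1.05 for the others, where the median of all genes was -0.02. Groups did not overlap upward in 23 members and downward in 1, where the backgrounds over all genes were 15.2% and 15.6%. In a bulk culture a change in the level per cell cannot be told apart from a change in the share of cells that make the RNA. With each array centred on its median the median gene moved by -0.11 and ALDOA no longer passed (0.09, adjusted p = 0.141 in limma). GPI, the isomerase gene, was then called lower (-0.21, 0.00843). Under that setting 5991 of the 11963 genes were called lower with pargyline, where 891 fell without centring.

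**Figure D1:**
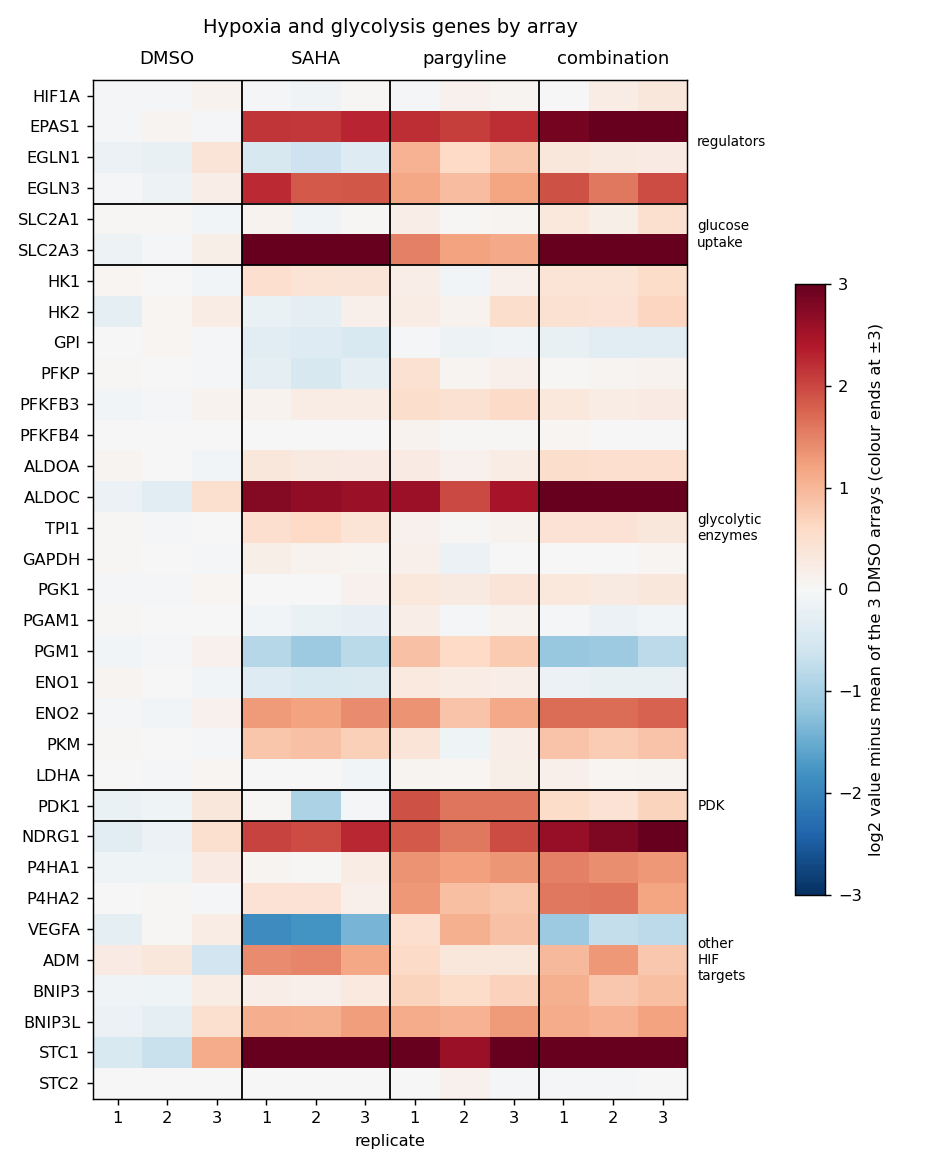
Log2 value of each of the 33 members (rows, grouped by role) on each of the 12 arrays (columns, 3 replicates a group), minus the mean of the 3 DMSO arrays, in colour from -3 to 3. EPAS1, SLC2A3, ALDOC, ENO2, NDRG1 and STC1 are higher in all 3 treated groups, P4HA1 is higher in the groups with pargyline, and VEGFA and PGM1 are lower in the groups with SAHA. DMSO replicate 3 is darker than the other DMSO arrays in STC1, NDRG1, ALDOC and BNIP3L.

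To show where the HIF core lies in the genes that moved, RefSeq promoter windows (GRCh38.p14, 250 bases before to 50 after each start) were searched for ACGTG and GCGTG on both strands; a CACGTG, which is also an E-box, holds ACGTG on both strands. Windows were held for 28 of the 33 members, and none was listed for SLC2A3, NDRG1, VEGFA, BNIP3L and STC1. ACGTG lay in 19 of the 47 windows of members, against 21.4% of all 35116 windows, and GCGTG in 21 of the 47, against 36.5%. At least 1 window held ACGTG in 10 of the 14 members with a window that rose with pargyline, and in 6 of the 14 that did not pass, among them HK2, LDHA and GAPDH. By window, that is 12 of 20 and 7 of 27. The share of all genes with ACGTG in at least 1 window was not counted, so the counts per member have no background. The members were also listed as known HIF targets and glycolysis genes. Genes with more annotated starts have more windows, and a match describes letters only. The 250 bases before the start are shown for the 6 members that rose with pargyline, have a single window and hold ACGTG before the start, so that the element can be read in genes whose start is annotated in 1 place. PDK1 (-17 and -8) and PGM1 (-26) also hold it close to a start, but have several windows and are not printed. The 6 printed members are named next. They are ALDOC (chr17:28576896-28577145, minus strand), P4HA1 (chr10:73096867-73097116, minus), ENO2 (chr12:6914330-6914579, plus), EGLN1 (chr1:231422288-231422537, minus), BNIP3 (chr10:131981924-131982173, minus) and PGK1 (chrX:78103998-78104247, plus), each written 5′ to 3′ on the gene's strand with ACGTG or its reverse complement CACGT in capitals.
ALDOC: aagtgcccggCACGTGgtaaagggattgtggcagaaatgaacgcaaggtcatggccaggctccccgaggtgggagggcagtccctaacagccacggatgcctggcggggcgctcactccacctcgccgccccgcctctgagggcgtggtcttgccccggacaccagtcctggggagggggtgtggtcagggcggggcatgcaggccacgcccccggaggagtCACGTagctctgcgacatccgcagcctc
P4HA1: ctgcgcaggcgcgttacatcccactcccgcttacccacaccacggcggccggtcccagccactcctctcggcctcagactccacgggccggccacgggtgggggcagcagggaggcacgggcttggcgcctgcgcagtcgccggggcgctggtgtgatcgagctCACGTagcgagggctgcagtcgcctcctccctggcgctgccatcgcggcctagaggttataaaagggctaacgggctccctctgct
ENO2: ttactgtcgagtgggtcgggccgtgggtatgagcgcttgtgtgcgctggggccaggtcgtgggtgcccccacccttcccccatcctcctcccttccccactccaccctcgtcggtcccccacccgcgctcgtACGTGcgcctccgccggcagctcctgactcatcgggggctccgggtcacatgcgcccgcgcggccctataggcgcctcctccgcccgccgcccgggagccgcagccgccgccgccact
EGLN1: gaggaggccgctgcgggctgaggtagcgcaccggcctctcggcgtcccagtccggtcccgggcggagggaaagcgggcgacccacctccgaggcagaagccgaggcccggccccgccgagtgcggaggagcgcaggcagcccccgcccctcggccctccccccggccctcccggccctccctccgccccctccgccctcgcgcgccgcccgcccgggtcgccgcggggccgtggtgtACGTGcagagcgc
BNIP3: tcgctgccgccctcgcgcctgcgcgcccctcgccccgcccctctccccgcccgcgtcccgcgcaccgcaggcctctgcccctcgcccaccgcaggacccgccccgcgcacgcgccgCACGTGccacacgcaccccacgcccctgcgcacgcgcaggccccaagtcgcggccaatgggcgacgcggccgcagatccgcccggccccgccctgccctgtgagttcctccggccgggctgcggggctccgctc
PGK1: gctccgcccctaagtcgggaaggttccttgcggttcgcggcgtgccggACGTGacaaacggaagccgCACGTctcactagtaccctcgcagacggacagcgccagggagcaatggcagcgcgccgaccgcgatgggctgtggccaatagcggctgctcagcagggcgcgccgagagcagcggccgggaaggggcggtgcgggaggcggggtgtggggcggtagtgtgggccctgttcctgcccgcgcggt
Counted from the start, the capitals begin at -202 and -183 in PGK1, at -118 in ENO2, at -86 in P4HA1 and at -13 in EGLN1. In ALDOC a CACGTG begins at -240 and a CACGT at -28, and in BNIP3 a CACGTG begins at -134, with the reverse complement of GCGTG at -143, -125, -116 and -104. GCGTG, which is not in capitals, also begins at -108 in ALDOC, with its reverse complement at -45, and at -211 in PGK1.

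Among the regulators, EPAS1 moved and HIF1A did not pass in any comparison. HIF1A, the alpha subunit of the general hypoxia response, read 14.05, 14.02 and 14.19 with DMSO, 14.04, 13.99 and 14.13 with SAHA, 14.03, 14.21 and 14.18 with pargyline, and 14.11, 14.32 and 14.43 with the combination. The groups overlapped, and the pargyline difference was 0.05 (95% interval -0.14 to 0.25). EPAS1, the related alpha subunit best known from endothelium and kidney cancer, read 10.03, 10.17 and 10.04 with DMSO, 12.22, 12.20 and 12.37 with SAHA, and 12.30, 12.16 and 12.30 with pargyline. With the combination it read 12.95, 13.10 and 13.12, above every array of either drug alone. Its rise was 2.18 ± 0.07 with pargyline (4.52-fold, adjusted p = 4.16e-07 in limma), 2.19 ± 0.07 with SAHA and 2.98 ± 0.07 with the combination. A dim further probe set of EPAS1 (mean level 2.52) gave 0.50, 0.33 and 1.08.

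The hydroxylase genes EGLN1 and EGLN3, which are themselves HIF targets and feed back on the alpha subunits, parted with SAHA. EGLN3 read 5.40, 5.30 and 5.64 with DMSO, 6.60, 6.37 and 6.63 with pargyline, 7.69, 7.28 and 7.31 with SAHA, and 7.36, 7.04 and 7.40 with the combination. It was higher on every treated array than on any DMSO array, by 1.09 ± 0.14 with pargyline, 1.98 ± 0.14 with SAHA and 1.82 ± 0.14 with the combination. EGLN1 read 8.70, 8.64 and 9.26 with DMSO, 8.39, 8.25 and 8.48 with SAHA, and 9.92, 9.47 and 9.70 with pargyline. It rose by 0.83 ± 0.16 with pargyline (adjusted p = 0.00816 in limma; 1.03 without DMSO replicate 3) and fell by 0.49 with SAHA (adjusted p = 0.032). Without DMSO replicate 3 the fall was -0.29 (adjusted p = 0.0768), and it also did not pass without SAHA replicate 1 (-0.50, 0.0685) or SAHA replicate 2 (-0.43, 0.106). With the combination EGLN1 read 9.20, 9.13 and 9.12, a difference of 0.29 ± 0.16 that did not pass, and that passed without DMSO replicate 3 (0.48, adjusted p = 0.00803).

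Of the glucose transporters, SLC2A3 rose in every treated group. SLC2A3 (GLUT3, a high-affinity transporter) read 8.25, 8.37 and 8.57 with DMSO, 9.91, 9.61 and 9.54 with pargyline, 12.41, 12.62 and 12.39 with SAHA, and 13.19, 13.23 and 12.76 with the combination. No groups overlapped, and the rise was 1.29 ± 0.15 with pargyline (2.45-fold), 4.08 ± 0.15 with SAHA (16.9-fold) and 4.66 ± 0.15 with the combination (25.4-fold). Its further probe sets gave 1.17 and 1.39 with pargyline and 4.11 and 4.18 with SAHA, and they can bind transcripts of the close relative SLC2A14. SLC2A1 (GLUT1, the basal transporter and a classical HIF target) was between 10.17 and 10.48 on the arrays with DMSO or a single drug. It differed by 0.11 ± 0.09 with pargyline (95% interval -0.08 to 0.30) and 0.02 ± 0.09 with SAHA, neither of which passed, and it rose by 0.32 ± 0.09 with the combination.

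At the aldolase step both drugs raised ALDOC, the isoform typical of brain. ALDOC read 8.61, 8.48 and 9.27 with DMSO, 11.36, 10.77 and 11.25 with pargyline, 11.53, 11.45 and 11.37 with SAHA, and 12.38, 12.39 and 12.17 with the combination. Every treated array lay above the highest DMSO array, and the arrays of the combination lay above all others. The rise was 2.34 ± 0.21 with pargyline (5.05-fold, adjusted p = 0.000187 in limma), 2.66 ± 0.21 with SAHA and 3.52 ± 0.21 with the combination; without DMSO replicate 3 it was 2.58 with pargyline, 2.90 with SAHA and 3.77 with the combination. ALDOA, the main isoform of most tissues, moved little: 0.20 ± 0.05 with pargyline, 0.28 ± 0.05 with SAHA and 0.51 ± 0.05 with the combination, each past the threshold. Its pargyline call was lost without DMSO replicate 2 (0.20, adjusted p = 0.0509), pargyline replicate 1 (0.17, 0.0601) or pargyline replicate 3 (0.19, 0.0628).

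At the enolase step the isoforms also parted. ENO2, the neuron-type enolase, read 9.62, 9.59 and 9.81 with DMSO, 11.02, 10.54 and 10.81 with pargyline, 10.94, 10.88 and 11.09 with SAHA, and 11.36, 11.34 and 11.44 with the combination. It rose by 1.11 ± 0.11, 1.30 ± 0.11 and 1.71 ± 0.11, and the DMSO arrays lay below all others. ENO1, the common enolase, read 14.61, 14.54 and 14.46 with DMSO, 14.82, 14.75 and 14.74 with pargyline, and 14.15, 14.09 and 14.10 with SAHA. So ENO1 was above the DMSO arrays with pargyline and below them with SAHA. It rose by 0.23 ± 0.04 with pargyline (adjusted p = 0.00555 in limma), fell by 0.42 with SAHA (1.66e-05) and fell by 0.20 with the combination (0.00218).

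**Figure D2:**
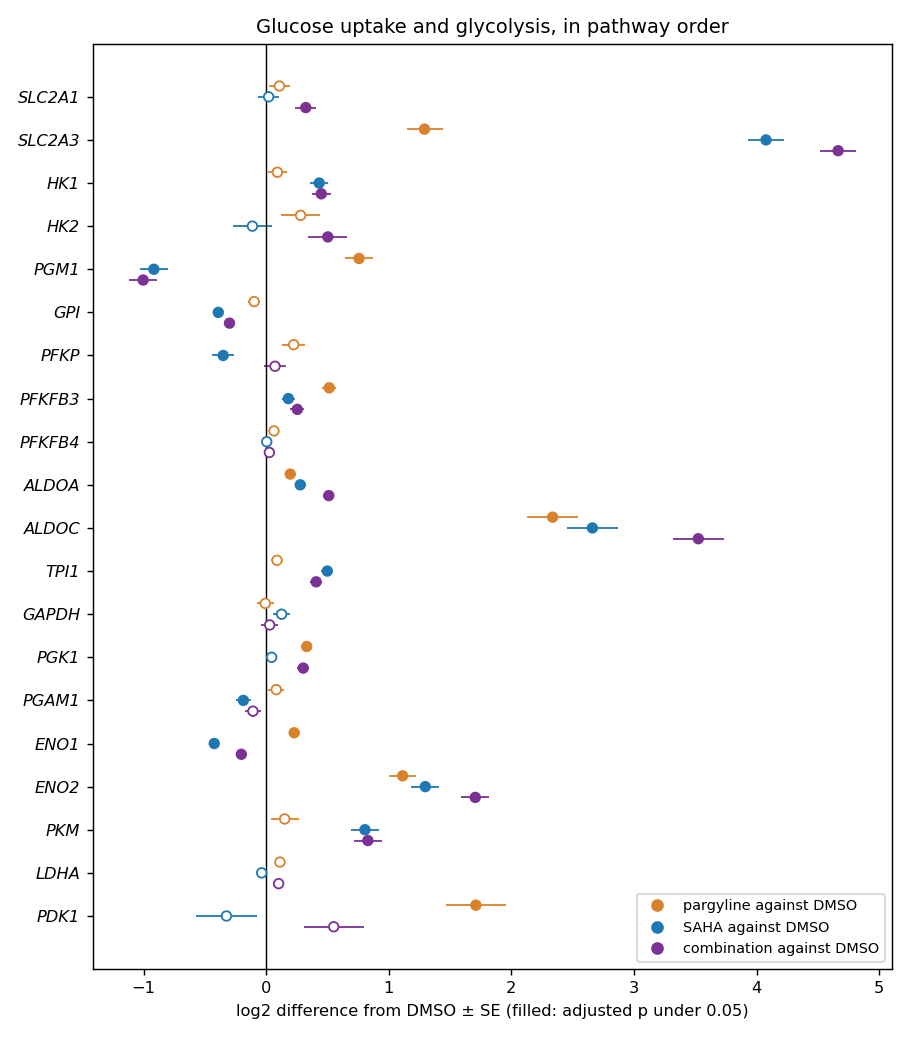
Log2 difference from DMSO, with its SE, for the glucose transporters, glycolytic enzymes and PDK1 in the order of the pathway, for pargyline, SAHA and the combination (3 arrays a group). Filled points passed at an adjusted p under 0.05; SLC2A3, ALDOC and ENO2 lie to the right in all 3 comparisons, PGM1 and ENO1 lie on opposite sides of 0 with pargyline and SAHA, and GAPDH lies near 0.

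Further glycolytic genes that rose with pargyline were PGM1, PFKFB3 and PGK1. PGM1, which links glycogen to glycolysis, read 11.58, 11.60 and 11.78 with DMSO, 12.53, 12.25 and 12.45 with pargyline, 10.80, 10.56 and 10.84 with SAHA, and 10.52, 10.56 and 10.86 with the combination. Pargyline arrays were above and both SAHA-containing groups below all DMSO arrays, by 0.76 ± 0.11 with pargyline, -0.92 ± 0.11 with SAHA and -1.0 ± 0.11 with the combination. PFKFB3, which makes the activator of phosphofructokinase, read 11.16, 11.20 and 11.34 with DMSO and 11.75, 11.69 and 11.81 with pargyline, a rise of 0.51 ± 0.06. It rose by 0.18 ± 0.06 with SAHA and 0.25 ± 0.06 with the combination; the SAHA call was lost with arrays centred (0.11, adjusted p = 0.139) and without DMSO replicate 1 (0.14, 0.0893), DMSO replicate 2 (0.16, 0.0759), SAHA replicate 2 (0.17, 0.0750) or SAHA replicate 3 (0.16, 0.0781). PGK1, the first ATP-making enzyme of the pathway and the last of the promoters shown, read 14.28, 14.29 and 14.38 with DMSO, 14.64, 14.59 and 14.71 with pargyline, 14.33, 14.31 and 14.45 with SAHA, and 14.63, 14.59 and 14.65 with the combination. Only the groups with pargyline lay above all DMSO arrays, by 0.33 ± 0.05 with pargyline and 0.30 ± 0.05 with the combination, and SAHA differed from DMSO by 0.05 ± 0.05, which did not pass. Its further probe sets gave 0.62, 0.53 and 0.19 with pargyline.

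Other glycolytic enzymes moved with SAHA and did not pass with pargyline. HK1 (0.43 ± 0.08), TPI1 (0.50 ± 0.05) and the pyruvate kinase gene PKM (0.81 ± 0.11) rose with SAHA, and GPI (-0.39 ± 0.05), the platelet-type phosphofructokinase PFKP (-0.35 ± 0.09) and PGAM1 (-0.19 ± 0.06) fell. With pargyline these 6 genes differed by 0.09, 0.09, 0.15, -0.10, 0.22 and 0.08. The PGAM1 call with SAHA was lost without any of 7 of the 12 arrays (adjusted p up to 0.129). HK2, the inducible hexokinase, passed with neither drug alone. It differed by 0.28 ± 0.16 with pargyline and -0.11 ± 0.16 with SAHA, and rose by 0.50 ± 0.16 with the combination, while its dim further probe set gave -1.36 there. The HK2 call was lost without DMSO replicate 1 (0.37, adjusted p = 0.0946) or combination replicate 3 (0.43, 0.0857). GAPDH and LDHA, which make and use the NADH of glycolysis, passed in no comparison. GAPDH lay between 14.81 and 15.15 and LDHA between 15.04 and 15.30 on all arrays, where the highest value of an array was 15.59 to 15.87. The pargyline difference was -0.01 for GAPDH (95% interval -0.16 to 0.15) and 0.11 for LDHA (0.01 to 0.21). Without DMSO replicate 3 LDHA passed with the combination (0.13, adjusted p = 0.0476). PFKFB4, a relative of PFKFB3, read 1.94 to 2.06 on the 12 arrays, at the 11.5th percentile of genes, and passed in none.

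PDK1, which holds pyruvate back from the mitochondrion by phosphorylating pyruvate dehydrogenase, was highest with pargyline alone. It read 6.83, 6.91 and 7.37 with DMSO, 8.95, 8.64 and 8.65 with pargyline, 7.08, 6.09 and 6.97 with SAHA, and 7.59, 7.48 and 7.70 with the combination. The pargyline arrays were above all others. The rise was 1.71 ± 0.25 (3.27-fold, adjusted p = 0.00183 in limma; 1.88 without DMSO replicate 3), and the combination lay below pargyline by a log2 difference of -1.16 ± 0.25 (adjusted p = 0.00283).

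Among the other HIF targets, both collagen prolyl hydroxylase subunits rose with pargyline and did not pass with SAHA. P4HA1 read 10.96, 10.97 and 11.35 with DMSO, 11.17, 11.13 and 11.31 with SAHA, 12.43, 12.32 and 12.41 with pargyline, and 12.61, 12.49 and 12.39 with the combination. Every array with pargyline lay above every array without it. P4HA1 rose by 1.29 ± 0.10 with pargyline (adjusted p = 0.000129 in limma) and by 1.40 ± 0.10 with the combination, and SAHA gave 0.11 ± 0.10, which did not pass. Without DMSO replicate 3 the SAHA difference was 0.24 and passed (adjusted p = 0.0256). P4HA2 read 10.14, 10.18 and 10.12 with DMSO, 11.45, 11.04 and 10.97 with pargyline, 10.58, 10.59 and 10.29 with SAHA, and 11.73, 11.75 and 11.33 with the combination. It rose by 1.01 ± 0.15 with pargyline and 1.46 ± 0.15 with the combination, and the SAHA difference of 0.34 ± 0.15 did not pass (adjusted p = 0.0937), although the SAHA arrays all lay above the DMSO arrays.

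The mitophagy receptor genes BNIP3 and BNIP3L also rose with pargyline. BNIP3 read 13.02, 12.99 and 13.35 with DMSO, 13.79, 13.67 and 13.81 with pargyline, 13.33, 13.27 and 13.41 with SAHA, and 14.18, 13.93 and 14.02 with the combination. It rose by 0.63 ± 0.10 with pargyline and 0.92 ± 0.10 with the combination, and SAHA arrays overlapped DMSO arrays (0.21 ± 0.10, adjusted p = 0.12); without DMSO replicate 3 the SAHA difference passed (0.33, adjusted p = 0.0070). BNIP3L read 11.42, 11.29 and 12.07 with DMSO, and between 12.63 and 12.87 on all 9 treated arrays. The rise was 1.14 ± 0.17 with pargyline, 1.14 ± 0.17 with SAHA and 1.12 ± 0.17 with the combination, so the drugs together read no higher than either alone. Without DMSO replicate 3 these rises were 1.38, 1.38 and 1.35.

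The secreted signals went separate ways. STC1, a glycoprotein hormone gene, read 6.58, 6.37 and 8.13 with DMSO, 10.39, 9.61 and 10.66 with pargyline, 12.58, 12.60 and 12.41 with SAHA, and 13.37, 13.18 and 13.18 with the combination. It had the largest rise of any member in each comparison with DMSO: 3.19 ± 0.42 with pargyline, 5.50 ± 0.42 with SAHA and 6.21 ± 0.42 with the combination, or 3.74, 6.05 and 6.76 without DMSO replicate 3. VEGFA, the main growth signal for vessels, read 10.75, 11.06 and 11.23 with DMSO, 11.51, 12.08 and 11.89 with pargyline, 9.12, 9.23 and 9.62 with SAHA, and 9.92, 10.30 and 10.23 with the combination. It rose by 0.81 ± 0.19 with pargyline (adjusted p = 0.0188 in limma), fell by 1.69 with SAHA (4.24e-05) and fell by 0.86 with the combination (0.00345), and no groups overlapped. All 3 further probe sets gave the same signs, 1.37, 1.36 and 1.10 with pargyline and -1.88, -2.36 and -2.13 with SAHA. The pargyline call for VEGFA was lost without DMSO replicate 1 (0.68, adjusted p = 0.0714), DMSO replicate 2 (0.84, 0.0522), pargyline replicate 2 (0.69, 0.0624) or pargyline replicate 3 (0.78, 0.0639).

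ADM, the vasodilator peptide adrenomedullin, read 11.13, 11.21 and 10.30 with DMSO, 11.46, 11.21 and 11.22 with pargyline, 12.29, 12.35 and 12.03 with SAHA, and 11.86, 12.19 and 11.69 with the combination. Here DMSO replicate 3 was the lowest array. ADM rose by 1.35 ± 0.23 with SAHA and 1.04 ± 0.23 with the combination, and the pargyline difference of 0.42 ± 0.23 (adjusted p = 0.291) became 0.13 without that array, with 1.06 for SAHA and 0.75 for the combination. NDRG1, a stress-response gene used as a hypoxia marker, read 9.23, 9.37 and 10.03 with DMSO, 11.39, 11.13 and 11.51 with pargyline, 11.58, 11.51 and 11.81 with SAHA, and 12.16, 12.35 and 12.57 with the combination. It rose by 1.80 ± 0.20, 2.09 ± 0.20 and 2.82 ± 0.20 (2.04, 2.34 and 3.06 without DMSO replicate 3), and the DMSO arrays lay below all others. STC2, the paralogue of STC1, read 2.33 to 2.50 on the 12 arrays and passed in no comparison.

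**Figure D3:**
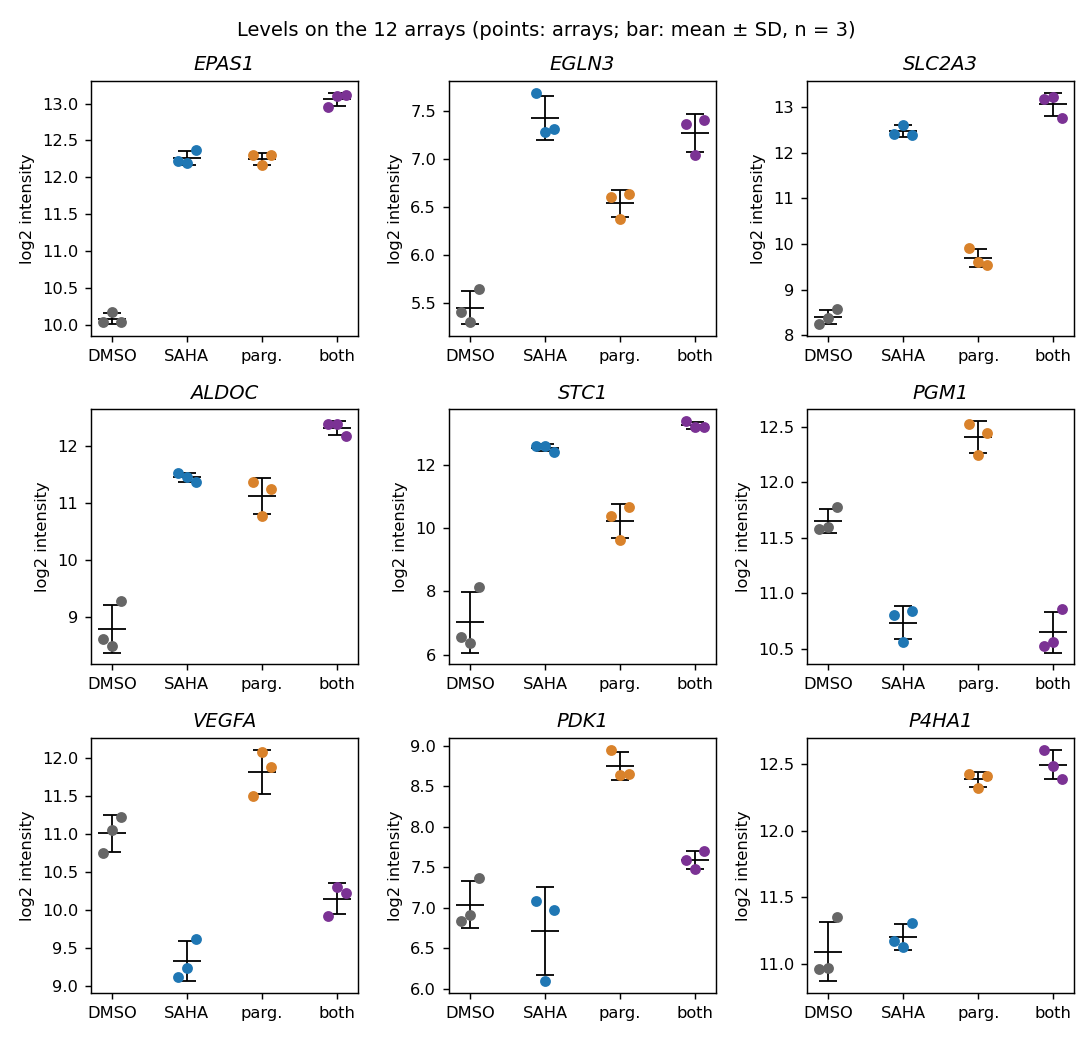
Deposited log2 intensity of 9 members on each of the 12 arrays (points), with the mean and SD of the 3 arrays of each group. EPAS1, ALDOC and STC1 are highest with both drugs, PDK1 and VEGFA are highest with pargyline alone, PGM1 is low in both groups with SAHA, and P4HA1 is high in both groups with pargyline. Each panel has its own scale.

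SAHA alone raised 14 of the 33 members and lowered 7, where 23.0% of all genes rose and 23.1% fell (46.2% either way). Groups did not overlap upward in 15 members and downward in 7, beside 26.8% and 26.1% of all genes. The combination raised 20 and lowered 4 against DMSO, where 24.3% of all genes rose and 24.0% fell (48.3% either way), and groups did not overlap upward in 22 and downward in 5, beside 29.5% and 36.5%. The members' median difference was 0.13 with SAHA and 0.45 with the combination, beside 0 and -0.01 over all genes. Within the glycolytic enzymes SAHA raised 7 and lowered 5 of 17, and the combination raised 9 and lowered 3. The comparisons with DMSO share the same 3 DMSO arrays, so the values of the drugs set side by side above are not independent of each other.

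Pargyline was also compared with no drug added and with SAHA present, a pair of comparisons that share no arrays. Added to SAHA, pargyline raised 17 of the 33 members and lowered none, where 7.88% of all genes rose and 8.71% fell, and without adjustment 19 had p under 0.05 in limma upward and 0 downward. Groups did not overlap upward in 19 members and downward in 1, beside 15.0% and 22.6% of all genes. The count of 17 became 10 without SAHA replicate 2 and 10 without combination replicate 2. P4HA1 rose by 1.29 ± 0.10 there, P4HA2 by 1.12 ± 0.15, PDK1 by 0.87 ± 0.25, ALDOC by 0.86 ± 0.21, VEGFA by 0.83 ± 0.19, EPAS1 by 0.79 ± 0.07, EGLN1 by 0.78 ± 0.16 and BNIP3 by 0.71 ± 0.10. Of these, VEGFA did not pass without SAHA replicate 1 (0.73, adjusted p = 0.0584), SAHA replicate 2 (0.78, 0.0581) or combination replicate 2 (0.76, 0.0653). PDK1 did not pass with any of 7 arrays left out (adjusted p up to 0.0935; 0.56 without SAHA replicate 2) or with quantile normalization (0.0531), nor ALDOC with any of 4 (up to 0.0726). EGLN3 (-0.17 ± 0.14), BNIP3L (-0.02 ± 0.17), PGM1 (-0.09 ± 0.11) and PFKFB3 (0.07 ± 0.06) did not pass, although each had risen with pargyline alone.

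The test of that contrast is the interaction, the pargyline effect with SAHA minus the effect without it. It was below 0 and passed in 7 of the 33 members, and above 0 in none, where over all genes 2.44% passed downward and 1.28% upward (3.72% either way). Without adjustment 13 members had p under 0.05 in limma downward and 1 upward. The 7 were ALDOC (-1.47 ± 0.29), EPAS1 (-1.39 ± 0.10), EGLN3 (-1.26 ± 0.20), BNIP3L (-1.16 ± 0.24), PGM1 (-0.84 ± 0.16), ENO2 (-0.71 ± 0.16) and PFKFB3 (-0.44 ± 0.08). In 6 of them SAHA alone had itself passed upward against DMSO, and in PGM1 it had passed downward. STC1 had a larger value (-2.48 ± 0.60) and did not pass (adjusted p = 0.0572). EPAS1 and EGLN3 passed with each of the 12 arrays left out in turn, PFKFB3 with 10 of them, and PGM1, ALDOC, ENO2 and BNIP3L with 5, 4, 2 and 2.

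The interaction counts turned on single arrays. The 7 became 3 without DMSO replicate 1, SAHA replicate 1, pargyline replicate 1, pargyline replicate 3 or combination replicate 1, and 2 without DMSO replicate 2 or combination replicate 2. Without DMSO replicate 3 the count was 9, with STC1 (-3.03, adjusted p = 0.00371) and NDRG1 (-1.32, 0.0127) added. With the mean of all its probe sets, the dim one included, EPAS1 gave -0.57 and did not pass (adjusted p = 0.352). With arrays centred on their median ENO2 did not pass (-0.63, adjusted p = 0.0518) and GPI was called above 0 (0.27, 0.0432), and over all genes the share of interaction calls above 0 went from 34.4% to 56.9%.

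Of the other 12 members that rose with pargyline, none passed the interaction test. In STC1 (95% interval -3.82 to -1.13), NDRG1 (-1.72 to -0.43), SLC2A3 (-1.17 to -0.24) and PDK1 (-1.62 to -0.05) the interaction lay below 0 with an unadjusted p under 0.05. In the other 8 the interval spanned 0. It was -0.34 to 0.33 for P4HA1, -0.14 to 0.12 for ENO1, -0.22 to 0.08 for PGK1, -0.24 to 0.39 for BNIP3, -0.58 to 0.63 for VEGFA, -0.57 to 0.47 for EGLN1, -0.11 to 0.18 for ALDOA and -0.37 to 0.58 for P4HA2. In log2 units the intervals of ENO1, PGK1 and ALDOA were narrower than those of VEGFA, EGLN1 and P4HA2. Their pargyline effects were also smaller, so the narrower intervals do not show a more equal effect in proportion.

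**Figure D4:**
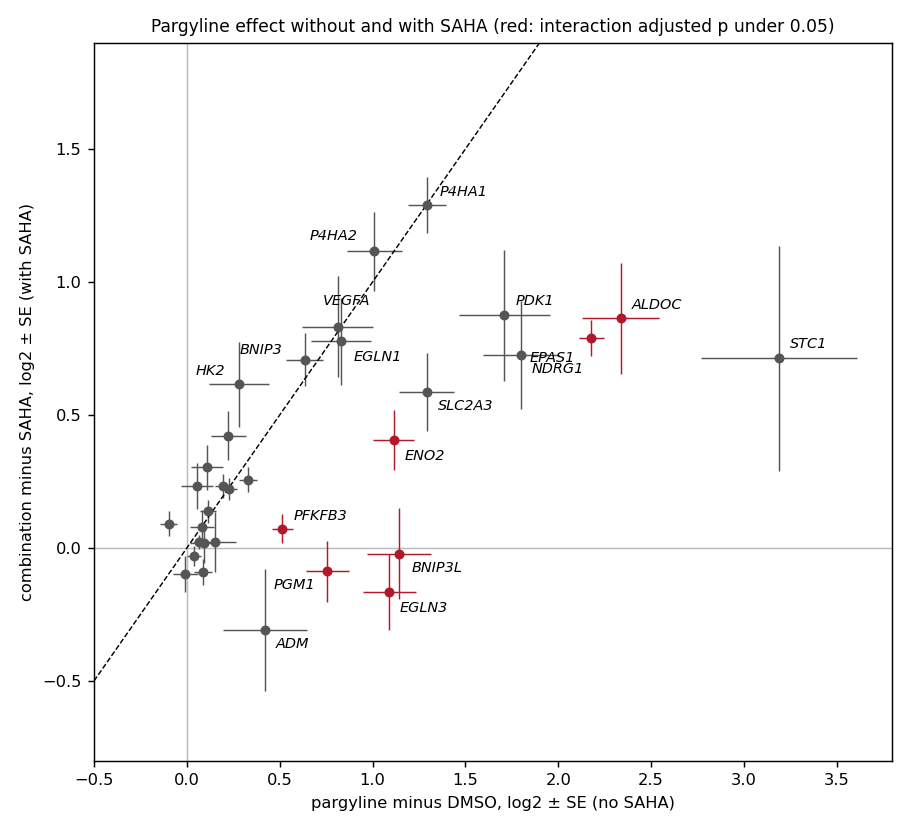
Pargyline minus DMSO (horizontal) against combination minus SAHA (vertical), as log2 differences with their SE, for the 33 members; the dashed line marks equal effects and red points passed the interaction test. P4HA1, P4HA2, VEGFA, EGLN1 and BNIP3 lie near the line, and EPAS1, ALDOC, EGLN3, BNIP3L, PGM1, ENO2 and PFKFB3 lie below it.

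SAHA added to pargyline raised 14 of the 33 members and lowered 8, where 23.9% of all genes rose and 23.6% fell (47.5% either way). Groups did not overlap upward in 13 members and downward in 8, beside 26.7% and 26.5% of all genes. SLC2A3 (3.37 ± 0.15), STC1 (3.02 ± 0.42), ALDOC (1.19 ± 0.21) and NDRG1 (1.02 ± 0.20) had the largest rises. PGM1 (-1.76 ± 0.11), VEGFA (-1.67 ± 0.19), PDK1 (-1.16 ± 0.25) and EGLN1 (-0.54 ± 0.16) had the largest falls. The EGLN1 call was lost without pargyline replicate 1 (-0.43, adjusted p = 0.0756), combination replicate 2 (-0.54, 0.0517) or combination replicate 3 (-0.53, 0.0512).

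Other genes of the pathway were taken from lists fixed by name, which were drawn up with earlier results of these data known. Of 11 further HIF pathway components measured, CITED2, a competitor of HIF for its coactivators, rose with pargyline (0.51 ± 0.10), RBX1, a subunit of the VHL ubiquitin ligase, fell (-0.20 ± 0.05), and 9 did not pass, beside 8.48% of all genes that rose and 7.45% that fell. With SAHA 4 rose, CITED2 by 3.51 ± 0.10, and 2 fell, RBX1 by 1.09, where 46.2% of all genes were called. Of 29 further HIF targets 16 rose with pargyline, 0 fell and 13 did not pass, with a median of 0.64, where 8.48% of all genes rose, 7.45% fell and the median was -0.02; without adjustment 22 had p under 0.05 in limma upward and 1 downward. The largest rises were in ANGPTL4 (3.93 ± 0.28), an inhibitor of lipoprotein lipase, TMEM45A (2.47 ± 0.18), the mTORC1 inhibitor DDIT4 (2.20 ± 0.14) and the lipoprotein receptor VLDLR (2.04 ± 0.19). With SAHA 10 of the 29 rose and 10 fell, beside 23.0% and 23.1% of all genes, and the SAHA difference of ANGPTL4 was 0.03 ± 0.28.

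Of 28 further glycolysis and pyruvate genes 4 passed with pargyline, where 15.9% of all genes did. The transporter SLC2A10 rose by 2.10 ± 0.26 and the pyruvate dehydrogenase kinase PDK3 by 0.75 ± 0.22. PDP1, the phosphatase that opposes the PDK enzymes, fell by 0.38, and PDHA1, a subunit of pyruvate dehydrogenase, fell by 0.32. With SAHA, PDP1 rose by 2.52 ± 0.10 and PDHA1 by 0.27 ± 0.08, and over the list 11 rose and 3 fell, beside 23.0% and 23.1% of all genes.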

How the data were processed

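MDA-MB-231 RNA was measured on 12 arrays. The deposited values are log2 intensities per probe set, made by the authors with RMA per the submitters' processing notes, which give no version; whether the arrays were normalized together is not given in the sources used here. Of 22277 probe sets, 62 controls were left out and 19064 listed for 1 gene were used, as 11963 genes by their brightest probe set, with no filter. Probe positions were not used.

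A mean per group was fitted to the 12 arrays (8 residual degrees of freedom) with limma 3.58.1 in R 4.3.3, with 6 contrasts, two-sided, Benjamini-Hochberg over all genes at 0.05. Intervals are 95% and unadjusted. The fit was tested on simulated data. The number of arrays limits the precision (median SE 0.077). Nothing beyond the label says that replicates came from separate cultures, so p-values measure the spread between these arrays.

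Members and lists were chosen with earlier results of these data known. Any member could be named, and up to 4 genes of each further list, the largest changes that passed with pargyline. Alternatives were quantile normalization, centring, leaving out dim genes, mean of probe sets, replicate block, compared groups alone, array weights, adjusted p under 0.01 and each array left out.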

Additional observations from a re-analysis of the deposited data

Results flagged for a closer look

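The pargyline effect differed between cells with and without SAHA, by the interaction test in limma, in 7 members, each with a smaller effect when SAHA was present. The interaction was -1.39 for EPAS1, whose pargyline effect went from 2.18 to 0.79, and -1.47 for ALDOC, from 2.34 to 0.86. It was -1.26 for EGLN3, from 1.09 to -0.17, and -1.16 for BNIP3L, from 1.14 to -0.02. It was -0.84 for PGM1, from 0.76 to -0.09, -0.71 for ENO2, from 1.11 to 0.41, and -0.44 for PFKFB3, from 0.51 to 0.07. Adjusted p ran from 0.000286 for EPAS1 to 0.0441 for ENO2.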

How the results depend on the processing

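The 110 member calls over the 6 comparisons, recomputed under every alternative, gave 2193 values, of which 2014 kept direction and side of the threshold, 178 no longer passed and 1 reversed. The reversal was HK2 in the combination against DMSO, -0.43 with the mean of its probe sets. With arrays centred, 1 member fell with pargyline, where 5991 of the 11963 genes did, and 1 had an interaction above 0. The share of all called genes that were higher went from 53.2% to 13.6% for pargyline and from 50.3% to 27.9% for the combination. At an adjusted p under 0.01, members that fell with SAHA numbered 4, those that rose in the combination against SAHA 7, and the interactions below 0 came to 1. With 1 array left out, members that rose with pargyline ranged from 17 to 19 and those that fell from 0 to 0. The ranges were 13 to 16 and 5 to 7 for SAHA, 19 to 22 and 4 to 4 for the combination against DMSO, 11 to 14 and 6 to 8 against pargyline, and 10 to 17 and 0 to 0 against SAHA. For the interaction they were 0 to 0 above 0 and 2 to 9 below 0. The cause was not tested, beyond the smaller number of arrays. Replicate number as a block kept all 110 calls and gave 19 members that rose with pargyline, 15 with SAHA and 21 with the combination, and 9 interactions below 0. The labels give these numbers no meaning. Deviations of same-numbered arrays still correlated, from 0.08 to 0.53 and over 0.1 in 13 of 18 pairs. Of the 12 arrays, 11 correlated best with their own number. What arrays of the same number shared was not tested, and the main fit has no term for it. Dim signal limits PFKFB4 and STC2, which were absent from the fit without dim genes.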

Other observations

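Of 12 pentose phosphate and gluconeogenic genes 3 rose with pargyline, 1 fell and 8 did not pass, where 8.48% of all genes rose and 7.45% fell. PCK2, the mitochondrial phosphoenolpyruvate carboxykinase, rose by 0.87 ± 0.17, and PGD and TKT of the pentose phosphate pathway by 0.78 ± 0.13 and 0.34 ± 0.06, while RPIA fell by 0.35. PGD rose further with both drugs (1.35 ± 0.13), whereas PCK2 differed from DMSO by -0.12 ± 0.17 there, which did not pass.

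Of 7 targets of ATF4, a transcription factor switched on by amino acid shortage and unfolded protein stress, 5 rose with pargyline and 0 fell (median 0.95); in limma, 5 had an unadjusted p under 0.05 upward and 0 downward. Over all genes 8.48% rose, with a median of -0.02. CHAC1 rose by 2.56 ± 0.50, ATF3 by 2.39 ± 0.20, TRIB3 by 1.17 ± 0.31 and ASNS by 0.95 ± 0.22. Added to SAHA, pargyline raised all 7, with a median of 1.55, where 7.88% of all genes rose and the median was -0.02. Their part in the changes of hypoxia and glycolysis genes was not tested. As with the other lists, these genes were chosen with earlier results of these data known.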
